A study of Mus musculus with 8 samples.

Results

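Brown adipose tissue (BAT) burns fuel to make heat, and 9 genes whose products carry or tune that heat were followed here across BAT of lean and obese mice. They were chosen by name from the 31053 genes of the count table, with earlier results of these data known. They comprise the uncoupling proteins Ucp1, Ucp2 and Ucp3, the ion channel genes Kcnk3 and Otop1 and the inner membrane gene Letmd1. The deiodinase gene Dio2 and the cytochrome c oxidase isoform genes Cox7a1 and Cox8b complete the set. BAT was profiled by bulk RNA-seq in 4 WT mice and 4 db/db mice, all 8 weeks old, with 1 library per mouse. Per the study's methods the mice were male, the WT animals were C57BL6/J, and the db/db animals, which carry the db mutation of the leptin receptor gene Lepr in every tissue, were the B6.BKS(D)-Leprdb/J stock. The study names 2 different suppliers for the WT mice in different places, 1 of them that of the db/db mice, so whether supplier differed with genotype is not settled here. All tissue was harvested after a fast.

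In brown adipocytes, electrons taken from fatty acids and glucose pass along the respiratory chain to cytochrome c oxidase, and protons are pumped out of the mitochondrial matrix. UCP1, which sits in the inner mitochondrial membrane and is opened by fatty acids, lets these protons flow back without making ATP, and the energy is released as heat. Cold and sympathetic nerves raise Ucp1 transcription through the beta3-adrenergic receptor, helped by thyroid hormone that the enzyme made from Dio2 activates inside the cell.

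The WT libraries held 2374079 to 2615009 counts and the db/db libraries 2382722 to 3240074, and mitochondrially encoded genes took 31.9% to 34.0% of them in WT and 30.7% to 37.6% in db/db. Lepr itself had 0 counts in all 8 libraries, which allows up to 3 counts in each, so its transcript gave no check of the genotype labels. One label names the stromal vascular fraction as the cell type, a fraction from which mature adipocytes are removed, while the source is given as brown adipose tissue. The summed level of 8 genes of mature adipocytes, among them Adipoq and Plin1, was 19270.0 to 29395 CPM in WT and 21164 to 25934 CPM in db/db, and Cidea, a lipid droplet gene of brown adipocytes, stood at 4356 ± 410 CPM in WT (SD, n = 4), so the libraries held mature adipocyte RNA in quantity. CPM are counts relative to library size, after scaling by TMM, the trimmed mean of M-values. They are not divided by gene length, and levels of different genes are therefore not compared with each other.

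Ucp1, Ucp3, Kcnk3, Letmd1, Cox7a1 and Cox8b fell in db/db BAT, Ucp2 rose, Otop1 did not pass the test, and Dio2 failed the filter on low counts. The falls lay between 1.40-fold for Cox7a1 and 2.17-fold for Kcnk3, and the rise of Ucp2 was 3.46-fold. Of the 9 genes, 8 passed the filter on low counts, and 7 of these 8 had an edgeR adjusted p under 0.05, beside 27.7% of all 9264 genes tested. The 6 that were lower stand beside 11.9% of all genes tested that were lower, and the 1 that was higher beside 15.8% that were higher. For 5 of the 8 genes the WT and db/db libraries did not overlap in CPM, beside 28.1% of all genes tested. The median log2 fold change over the 8 genes was -0.64, beside 0.01 over all genes tested. RNA of whole tissue does not separate fewer brown adipocytes from less RNA of these genes in each, and these cannot be told apart here. The count of 7 was 4 without WT replicate 4 and 2 with a skeletal muscle score in the model, and skeletal muscle genes were higher in db/db, as described further on.

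**Figure D1:**
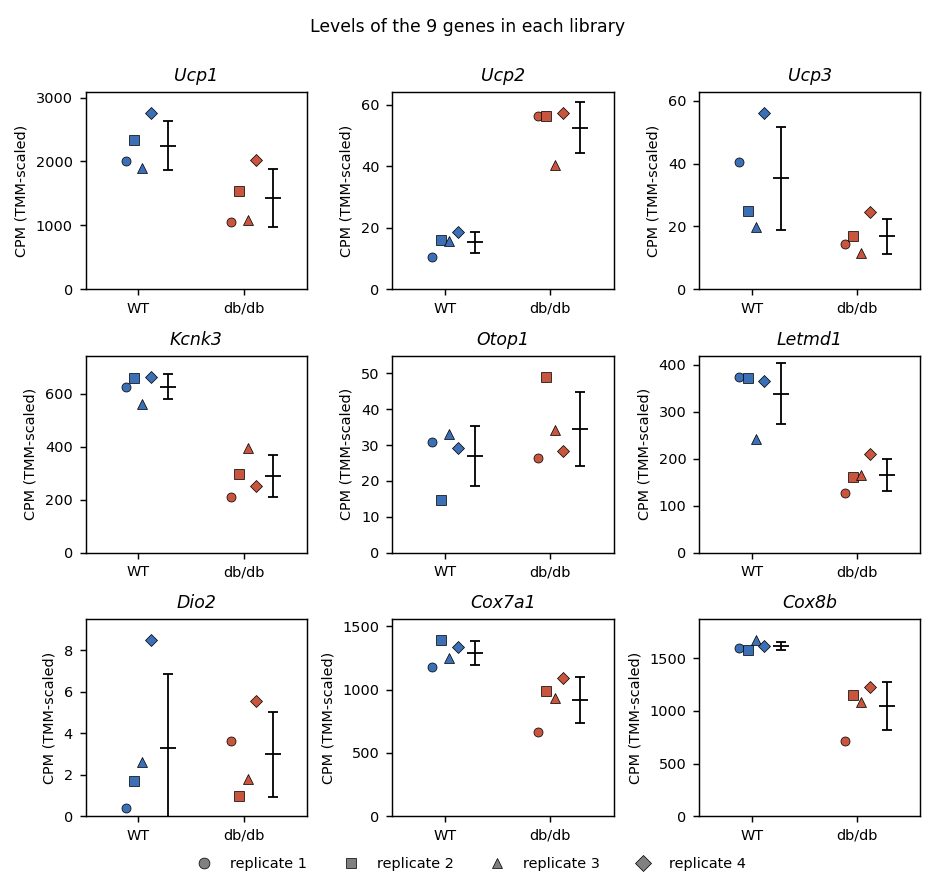
Level of each of the 9 genes in CPM (vertical axes, linear and starting at 0) in the 4 WT libraries (blue) and the 4 db/db libraries (red), with a marker shape per replicate and the mean ± SD in black beside each group (the WT bar of Dio2 is cut off at 0). Kcnk3, Letmd1, Cox7a1 and Cox8b were lower in every db/db library than in every WT library, Ucp2 was higher in every db/db library, and the groups overlapped for Ucp1, Ucp3, Otop1 and Dio2.

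The uncoupling proteins did not move together. Ucp1 (ENSMUSG00000031710, mm10 chromosome 8, 83290352 to 83298452, plus strand) had 2006, 2339, 1892 and 2754 CPM in WT replicates 1 to 4 and 1056, 1544, 1088 and 2027 CPM in db/db replicates 1 to 4. The groups overlapped: db/db replicates 1, 2 and 3 lay below every WT library while db/db replicate 4 lay above WT replicates 1 and 3. The means were 2248 ± 387 and 1429 ± 457 CPM (SD, n = 4 each), a log2 fold change of -0.65 ± 0.19 (SE; edgeR adjusted p = 0.0176), which is 36.4% lower in db/db. Ucp1 took 0.193% (95% Wilson interval 0.187 to 0.198) to 0.270% (0.263 to 0.276) of all counts in WT libraries and 0.103% (0.0990 to 0.107) to 0.191% (0.186 to 0.196) in db/db libraries, so counting error was small beside the spread between mice. The call rested on single libraries, since the log2 fold change was -0.55 without WT replicate 4 (adjusted p = 0.0707) and -0.55 without db/db replicate 3 (adjusted p = 0.0612).

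Ucp3 encodes a relative of UCP1 that is found mainly in skeletal muscle and brown fat and is tied to fatty acid use rather than to heat. It (ENSMUSG00000032942, chromosome 7, 100472990 to 100486432, plus strand) had 40.5, 24.9, 19.9 and 56.0 CPM in WT and 14.4, 16.9, 11.5 and 24.6 CPM in db/db. The WT libraries spread widely, from the lowest to the highest by a factor of 2.81, and db/db replicate 4 lay above WT replicate 3. The mean went from 35.3 ± 16.3 to 16.8 ± 5.58 CPM, with a log2 fold change of -1.06 ± 0.30 (edgeR adjusted p = 0.0126) and -0.76 without WT replicate 4, where the adjusted p was 0.0663.

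Ucp2, which encodes a carrier of the same family that is made in many tissues and is abundant in immune cells, moved the other way. Its values (ENSMUSG00000033685, chromosome 7, 100493337 to 100502020, plus strand) were 10.5, 16.0, 15.8 and 18.7 CPM in WT and 56.6, 56.3, 40.3 and 57.3 CPM in db/db, so the lowest db/db library stood above the highest WT library. The mean rose from 15.3 ± 3.42 to 52.6 ± 8.20 CPM, a log2 fold change of 1.79 ± 0.20 (edgeR adjusted p = 4.4e-06). Ucp3 and Ucp2 are neighbours on the same strand, with 6.9 kb between the end of Ucp3 and the start of Ucp2. Both share annotated bases with a gene on the opposite strand, Ucp2 with Dnajb13 and Ucp3 with Gm10603, and use of strand in counting is not stated, so their counts are uncertain to that extent. Dnajb13 had at most 2 counts and Gm10603 at most 8 counts in any library.

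Within a library, the ratio of Ucp2 to Ucp1 counts does not depend on the scaling. In log2 it averaged -7.20 ± 0.27 (SD, n = 4) over WT and -4.72 ± 0.38 (SD, n = 4) over db/db libraries, a 5.57-fold shift towards Ucp2 with no overlap between the groups (exact two-sided permutation p = 0.0286, the smallest that 4 against 4 libraries can give; 0.0857 after adjustment over the 6 ratios computed). The log2 ratio of Ucp3 to Ucp1 differed by -0.31 between the groups, from -6.08 ± 0.54 to -6.39 ± 0.16 (exact permutation p = 0.429, adjusted 0.549). The 4 db/db libraries kept Ucp3 and Ucp1 in a narrow ratio, whereas in WT replicates 1 and 4 the ratio was higher than in replicates 2 and 3.

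Macrophage genes moved with Ucp2. Of 10 macrophage markers, 9 were tested and 8 were higher in db/db, led by the lysozyme gene Lyz2 (log2 fold change 2.79), the complement genes C1qb (2.41) and C1qc (2.18), and Cd68 (2.41), all with edgeR adjusted p-values of at most 5.4e-06. Their summed level was 157 to 213 CPM in WT and 734 to 1293 CPM in db/db, with no marker at 0 counts in all WT libraries. The db/db library with the lowest Ucp2, replicate 3, had 740 CPM of macrophage genes, close to the 734 CPM of replicate 2, in which Ucp2 was not low. The part of these cells in the Ucp2 level was not tested.

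Promoter sequence is shown for the uncoupling proteins, which sit in the same family and moved in opposite directions, and for Letmd1, the one other gene of the 9 whose window held the half-site described next. The sequences are the 250 bases before the RefSeq start on build GRCm38.p6, written along the strand of the gene, and capitals mark AGGTCA, the half-site that thyroid hormone, retinoid, PPAR and estrogen-related receptors share. They lie at chr8:83290098-83290347 (Ucp1), chr7:100472741-100472990 (Ucp3), chr15:100468761-100469010 (Letmd1) and chr7:100493108-100493357 (Ucp2), all on the plus strand.
Ucp1: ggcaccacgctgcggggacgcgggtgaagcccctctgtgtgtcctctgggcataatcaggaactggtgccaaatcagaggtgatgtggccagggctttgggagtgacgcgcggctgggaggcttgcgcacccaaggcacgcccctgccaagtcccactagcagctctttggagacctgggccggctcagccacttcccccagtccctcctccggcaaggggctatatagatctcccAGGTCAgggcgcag
Ucp3: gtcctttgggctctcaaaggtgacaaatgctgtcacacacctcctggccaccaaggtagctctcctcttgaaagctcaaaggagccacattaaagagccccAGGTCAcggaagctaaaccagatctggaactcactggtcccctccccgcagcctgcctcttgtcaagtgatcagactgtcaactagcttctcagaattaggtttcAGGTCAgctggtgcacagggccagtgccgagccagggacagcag
Letmd1: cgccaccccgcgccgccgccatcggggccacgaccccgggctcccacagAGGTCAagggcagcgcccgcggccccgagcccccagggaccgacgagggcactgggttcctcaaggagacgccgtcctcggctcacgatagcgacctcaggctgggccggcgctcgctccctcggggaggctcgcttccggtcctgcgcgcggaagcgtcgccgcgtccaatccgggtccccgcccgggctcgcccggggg
Ucp2: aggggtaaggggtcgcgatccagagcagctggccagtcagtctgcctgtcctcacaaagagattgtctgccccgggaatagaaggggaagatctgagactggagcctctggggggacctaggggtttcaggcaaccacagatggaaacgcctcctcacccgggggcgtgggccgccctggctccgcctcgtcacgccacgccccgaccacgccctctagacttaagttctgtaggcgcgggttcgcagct

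AGGTCA stood 14 bases before the start in Ucp1, at 149 and 44 bases in Ucp3 and at 201 bases in Letmd1, counted to the first base of the match. It was found in none of the 250 bases of Ucp2, nor in those of Otop1, Dio2, Cox7a1 and Cox8b. The 3 holders were thus 3 of the 8 genes whose promoters were searched, all of the 9 but Kcnk3, beside 14.0% of all 32851 promoters on either strand. The holders were 3 of the 5 genes that fell and were searched, Cox7a1 and Cox8b having none, and this half-site was searched for after the 4 planned motifs, once their matches were known. Of the planned motifs, the estrogen-related receptor element TNAAGGTCA was in 1.14% of all promoters and in none of the 8. The cyclic AMP response element TGACGTCA was in 1.55% of all promoters and in 1 of the 8, Dio2, where it begins 95 bases before the start. Direct repeats of the half-site 1 base apart (0.0335% of promoters) or 4 bases apart (0.0152%) were in none of the 8. A match describes letters only, and the distal enhancer of Ucp1 lies outside these windows. RefSeq starts also differ from the gene ranges given here. The Otop1 window, 38277154 to 38277403, lies inside its gene range, and those of Ucp2, Ucp3 and Cox7a1 reach into theirs.

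Kcnk3 and Otop1 encode ion channels of the plasma membrane. Kcnk3 makes a background potassium channel of the K2P family that damps depolarisation of the brown adipocyte, and it is one of the genes that mark brown fat. It (ENSMUSG00000049265, chromosome 5, 30588170 to 30625271, plus strand) had 623, 657, 559 and 663 CPM in WT and 212, 297, 394 and 253 CPM in db/db. Every db/db library lay below every WT library, and db/db replicate 1 was the lowest.
The mean fell from 626 ± 47.8 to 289 ± 78.2 CPM (SD, n = 4 each), a log2 fold change of -1.12 ± 0.17 (edgeR adjusted p = 7.7e-05). Kcnk3 shares 450 bases with Gm9899 on the opposite strand, and its counts are uncertain to that extent. Otop1 makes a proton channel that takes part in thermogenic signalling in beige and brown fat. Otop1 (ENSMUSG00000051596, chromosome 5, 38275972 to 38304217, plus strand) had 30.8, 14.8, 33.1 and 29.3 CPM in WT and 26.5, 49.0, 34.1 and 28.3 CPM in db/db. The groups overlapped in part, with db/db replicates 2 and 3 above every WT library and WT replicate 2 below every db/db library. The log2 fold change of 0.35 ± 0.25 (SE) did not pass (edgeR adjusted p = 0.314).

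Of 17 relatives of these channels and of Letmd1, 2 passed the filter and 10 had 0 counts in all 8 libraries, which allows up to 3 counts in each. Letm1, which encodes a cation exchanger of the inner mitochondrial membrane, fell from 162 ± 23.2 to 115 ± 15.7 CPM (log2 fold change -0.50 ± 0.15, edgeR adjusted p = 0.0168). The call of Letm1 was lost without WT replicate 4, without db/db replicate 3 and with the skeletal muscle score in the model (log2 fold change -0.39, adjusted p = 0.374). Letm2 had a log2 fold change of -0.88 ± 0.34 and did not pass (edgeR adjusted p = 0.0647). It passed under limma-voom (adjusted p = 0.0484), with the replicate number as a block (0.0441) and when all genes with a count were kept (0.0236). Without WT replicate 1 (edgeR adjusted p = 0.0489) or without db/db replicate 3 (0.0266) it passed as well. Kcnk6, a K2P channel gene, failed the filter with 3, 2, 1 and 0 counts in WT and 13, 7, 9 and 12 counts in db/db, and was called higher in the fits that kept it, DESeq2 (adjusted p = 0.0178) and edgeR on all genes with a count (0.0124).

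Letmd1 encodes an inner mitochondrial membrane protein with a LETM1-like domain, and mice that lack it cannot defend body temperature in the cold. It (ENSMUSG00000037353, chromosome 15, 100469023 to 100479164, plus strand) had 374, 373, 242 and 366 CPM in WT and 127, 160, 166 and 209 CPM in db/db. WT replicate 3 stood well below the other WT libraries and still above every db/db library. The mean fell from 339 ± 64.8 to 166 ± 34.0 CPM, a log2 fold change of -1.03 ± 0.17 (edgeR adjusted p = 0.000202).

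Cox7a1 and Cox8b encode the isoforms of 2 small subunits of cytochrome c oxidase that heart, skeletal muscle and brown fat use in place of the widely made Cox7a2 and Cox8a. Cox7a1 (ENSMUSG00000074218, chromosome 7, 30184144 to 30186078, plus strand) had 1183, 1391, 1251 and 1340.0 CPM in WT and 666, 992, 935 and 1092 CPM in db/db. Its groups did not overlap, and db/db replicate 1 was the lowest of the 8 libraries. The mean fell from 1291 ± 92.7 to 921 ± 182 CPM, a log2 fold change of -0.49 ± 0.15 (edgeR adjusted p = 0.0220). The adjusted p was 0.0614 without WT replicate 2 and 0.0579 without WT replicate 4, with log2 fold changes of -0.46 and -0.48.

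Cox8b (ENSMUSG00000025488, chromosome 7, 140898945 to 140900446, minus strand) had 1602, 1578, 1672 and 1622 CPM in WT and 712, 1156, 1087 and 1231 CPM in db/db. The 4 WT libraries were nearly level, with a coefficient of variation of 2.47%, whereas the db/db libraries varied by 22.0% with replicate 1 far below the rest. The mean fell from 1618 ± 40.0 to 1046 ± 231 CPM, a log2 fold change of -0.63 ± 0.16 (edgeR adjusted p = 0.00585).

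The other subunits of cytochrome c oxidase were read beside these isoforms. Of 18, 16 were tested, 6 were lower and 2 were higher, with a median log2 fold change of -0.30 beside 0.01 over all genes tested. The 6 were Cox6a1 (log2 fold change -0.82), Cox7a2 (-0.54), the mitochondrially encoded mt-Co3 (-0.53), Cox5a (-0.47), Cox6c (-0.46) and Cox6b1 (-0.45). Cox6a1 is the widely made form of its subunit, and its muscle form Cox6a2 went the other way, from 22.4 ± 15.2 to 255 ± 191 CPM (log2 fold change 3.52 ± 0.47, edgeR adjusted p = 3.0e-05). The mitochondrially encoded catalytic subunit gene mt-Co1 was higher, from 3458 ± 143 to 4518 ± 549 CPM (log2 fold change 0.39 ± 0.14, edgeR adjusted p = 0.0451), while mt-Co3 was lower, from 51.6 ± 2.32 to 35.5 ± 5.98 CPM. Both overlap a neighbouring mitochondrial gene, and the call of mt-Co1 was lost in 7 of the 8 fits without 1 library and under 2 of 3 other scalings. Without WT replicate 4 the lower calls were 3, Cox6a1, Cox7a2 and mt-Co3, in place of 6, and 1 subunit gene was higher, Cox6a2. Over the 8 fits without 1 library, Cox5a lost its call in 4, Cox6b1 in 3, and Cox6c and mt-Co3 in 1 each.

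**Figure D2:**
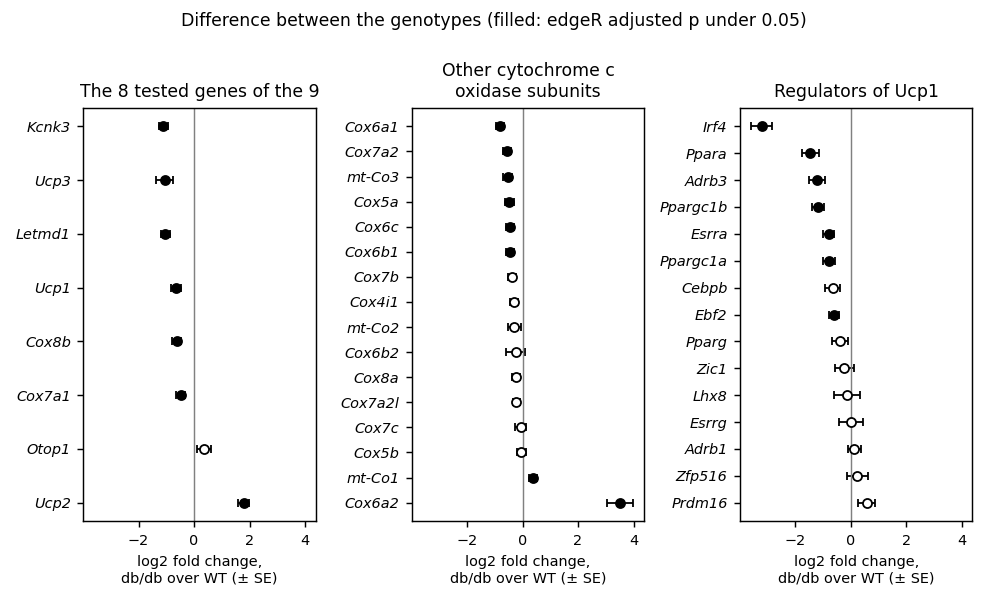
Log2 fold change of db/db over WT with its SE (horizontal axes, shared scale) for the 8 tested genes of the 9, for 16 other cytochrome c oxidase subunits and for 15 regulators of Ucp1, with filled points for edgeR adjusted p-values under 0.05. Ucp2 at 1.79 is the one filled point to the right of 0 in the first panel, Cox6a2 at 3.52 lies farthest right of all, and Irf4 at -3.22 lies farthest left.

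Isoform choice was then read as the log2 ratio of counts of the isoforms within each library. Cox7a1 relative to Cox7a2 averaged -0.71 ± 0.16 (SD, n = 4) over WT and -0.67 ± 0.14 (SD, n = 4) over db/db libraries, a difference of 0.05 that lay within the spread (exact two-sided permutation p = 0.686, adjusted over 6 ratios 0.686). Both isoforms fell, and their ratio overlapped between the groups, with the lowest value in WT replicate 1 at -0.95. Cox8b relative to Cox8a was 0.04 ± 0.22 in WT and -0.38 ± 0.23 in db/db, a difference of -0.42 with overlapping groups (exact permutation p = 0.0571, adjusted 0.114).

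Cox6a2 relative to Cox6a1 gave the widest difference of the 6 ratios, from -7.85 ± 0.98 to -3.57 ± 1.23, a 19.4-fold shift to the muscle form with no overlap (exact permutation p = 0.0286, adjusted 0.0857). Cox4i2, the lung form of subunit 4, was too scarce to follow, with 12 counts over the 4 WT libraries, and its ratio to Cox4i1 differed by 0.89 (exact permutation p = 0.457, adjusted 0.549). None of the 6 ratios had an adjusted p under 0.05. Cox6a2/Cox6a1 and Ucp2/Ucp1 stood at 0.0286, the smallest exact permutation p that 4 against 4 libraries can give. Adjustment over the 6 ratios raised it to 0.0857, so with the other ratios as they were these could not pass at any size.

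**Figure D3:**
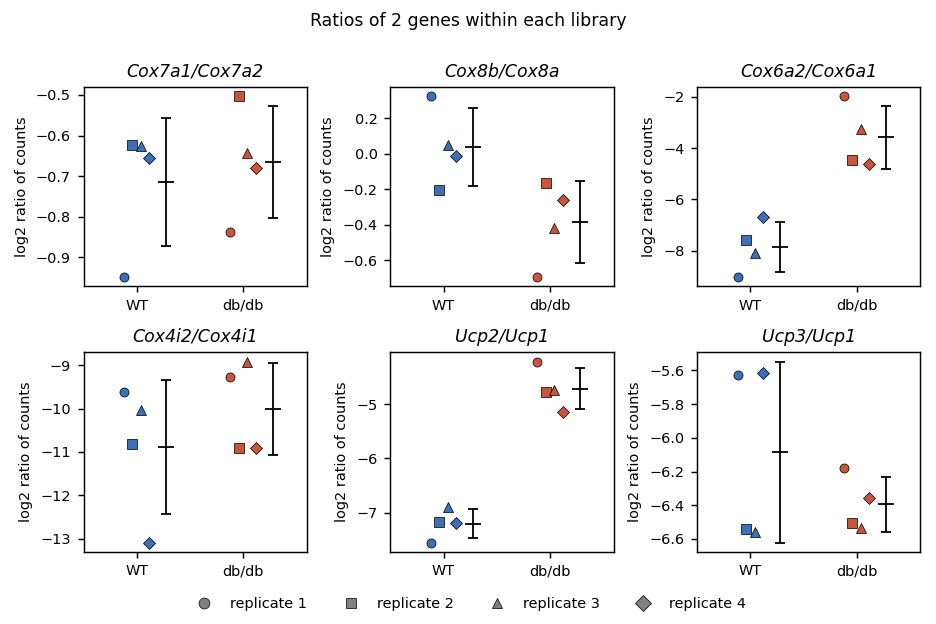
Log2 ratio of the counts of 2 genes within each library (vertical axes, each on its own scale) for the 6 ratios, with WT in blue, db/db in red, a marker shape per replicate and the mean ± SD in black. The groups separate for Cox6a2/Cox6a1 and Ucp2/Ucp1 and overlap for the other 4 ratios.

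Skeletal muscle genes moved with genotype, which bears on Ucp3, Cox7a1, Cox8b and Cox6a2 because muscle fibres make them too. Of 20 muscle markers, 19 were tested and 17 were higher in db/db, including the fast troponin genes Tnnc2 (log2 fold change 3.05) and Tnni2 (2.89), the actin gene Acta1 (3.05) and the sarcomere gene Tcap (2.99), and none had 0 counts in all WT libraries. Under DESeq2 14 were called, 13 of them among the 17, and limma-voom and the replicate block each gave 15. Myh4 lost its call in 4 of the 8 fits without 1 library. The summed level of the 20 markers was 510 to 1889 CPM in WT and 2498 to 12667 CPM in db/db, highest in db/db replicate 1. In that library Ucp1, Kcnk3, Letmd1, Cox7a1 and Cox8b were each at the lowest value of the 8 libraries and Cox6a2 at the highest. Without db/db replicate 1, 7 of the 8 genes were still called, 6 of them lower.

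A muscle score, the mean log2 CPM of the markers centred over libraries and used as a covariate in edgeR, lay between -2.11 and -0.06 for the WT libraries and between -0.03 and 2.44 for the db/db libraries, with no overlap. With it in the model, 702 genes were called in place of 2568, and 2 of the 8 genes were called, namely Kcnk3 (log2 fold change -1.10, adjusted p = 0.0143) and Ucp2 (1.63, adjusted p = 0.0019). Ucp1 (-0.40, adjusted p = 0.469), Ucp3 (-0.97, 0.201), Letmd1 (-0.77, 0.0690), Cox7a1 (-0.23, 0.644) and Cox8b (-0.26, 0.598) did not pass in that model. WT replicate 4 and db/db replicate 4 had nearly the same muscle score, -0.06 and -0.03, and between these libraries the log2 difference was -0.44 for Ucp1, -1.19 for Ucp3, -1.39 for Kcnk3, -0.80 for Letmd1, -0.30 for Cox7a1, -0.40 for Cox8b and 1.62 for Ucp2, from 1 library each and with no test.

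**Figure D4:**
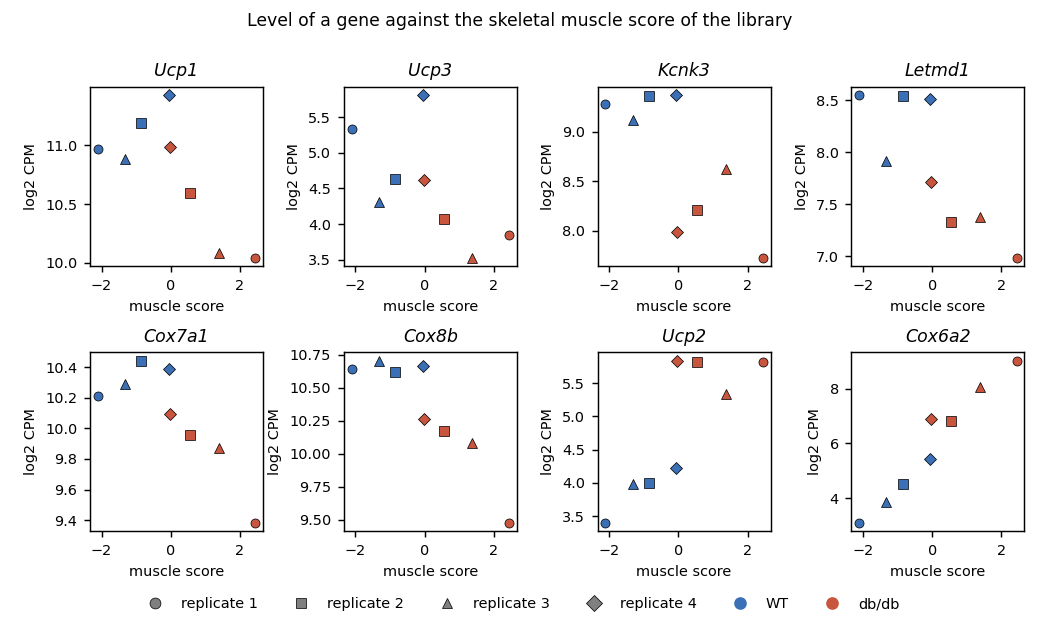
Log2 CPM of 8 genes (vertical axes, each on its own scale) against the skeletal muscle score of the library (horizontal axes, mean log2 CPM of the muscle markers, centred), with WT in blue, db/db in red and a marker shape per replicate. The replicate 4 libraries of both genotypes lie near a score of 0, where the 6 genes that fell are lower in db/db and Ucp2 is higher, and Cox6a2 is highest at the highest score.

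Dio2 encodes the deiodinase that turns thyroxine into active thyroid hormone within the brown adipocyte. It (ENSMUSG00000007682, chromosome 12, 90724552 to 90738438, minus strand) had 1, 4, 7 and 20 counts in WT and 12, 3, 4 and 15 counts in db/db, and failed the filter on low counts. The values were scattered in both groups, with the replicate 4 libraries highest in WT and in db/db alike, and the mean was 3.30 ± 3.58 CPM in WT and 2.98 ± 2.06 CPM in db/db (exact two-sided permutation p = 0.914). In 5 other fits that kept Dio2 its log2 fold change lay between -0.52 and 0.02 with adjusted p-values of at least 0.599, so no difference was detected at these counts and this spread between mice. Dio2 shares 238 bases with Gm26512 on the opposite strand, which makes its few counts uncertain as well.

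Of 12 genes that handle thyroid hormone, 6 were tested, 3 were lower and none was higher, and the values of 2 of the 3 are given. The receptor gene Thrb fell from 48.2 ± 8.42 to 28.6 ± 3.45 CPM (log2 fold change -0.76 ± 0.17, edgeR adjusted p = 0.00334). Thrsp, a hormone-responsive gene of lipogenesis, fell from 1377 ± 227 to 839 ± 212 CPM (log2 fold change -0.71). The other deiodinase genes, Dio1 and Dio3, had 0 counts in every library, which allows up to 3 counts in each.

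A list of 15 genes tied to the control of Ucp1 or to the brown lineage, called regulators of Ucp1 here, was tested in full. Of these, 7 were lower and none was higher, with a median log2 fold change of -0.59. Irf4, a transcription factor that acts with PGC-1alpha in brown fat during fasting and cold, had 13.8, 55.3, 54.1 and 28.9 CPM in WT and 3.01, 4.45, 4.43 and 4.46 CPM in db/db. The db/db libraries were nearly level and lay below every WT library (log2 fold change -3.22 ± 0.39, edgeR adjusted p = 9.5e-06).

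The nuclear receptor gene Ppara fell from 94.1 ± 29.9 to 34.6 ± 19.4 CPM (log2 fold change -1.46, edgeR adjusted p = 0.00165). Adrb3, the beta3-adrenergic receptor gene through which noradrenaline reaches brown adipocytes, fell from 55.6 ± 29.6 to 23.7 ± 4.88 CPM (-1.22, edgeR adjusted p = 0.00298), with WT replicate 3 at 98.8 CPM and the other WT libraries between 35.7 and 50.6 CPM. The coactivator gene Ppargc1b fell from 85.0 ± 18.2 to 37.5 ± 11.2 CPM (-1.19). Esrra, Ppargc1a and Ebf2 were lower as well, with log2 fold changes of -0.80, -0.79 and -0.59, though Ppargc1a did not pass without WT replicate 4 (adjusted p = 0.0732) nor Ebf2 without WT replicate 1 (0.0760). Prdm16, at a log2 fold change of 0.56 ± 0.31, and Pparg, at -0.39 ± 0.29, did not pass.

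Other routes of proton leak were read from a list of 7 genes, the ADP/ATP carriers, further relatives of the uncoupling proteins and the ATP synthase inhibitor, of which 5 were tested, 2 were higher and none was lower. Slc25a4 encodes an ADP/ATP carrier through which protons also leak, and rose from 497 ± 73.3 to 752 ± 129 CPM (log2 fold change 0.60 ± 0.15, edgeR adjusted p = 0.00636). This carrier is the form abundant in heart and skeletal muscle, and its highest library was db/db replicate 1, at 932 CPM. Slc25a5, the form of other tissues, had a log2 fold change of 0.19 ± 0.17 (adjusted p = 0.467). Atp5if1, which encodes the inhibitor of the ATP synthase, rose from 37.4 ± 8.75 to 78.9 ± 19.0 CPM (1.08 ± 0.20, edgeR adjusted p = 0.000528).

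The falls did not extend to all adipocyte genes. Of 9 further brown adipocyte markers, 7 were tested, of which Slc27a2 (log2 fold change -2.13), Acot11 (-1.85), Cidea (-1.24) and Plin5 (-0.83) were lower and Fabp3 (1.85) and S100b (1.61) were higher. Of 8 genes of adipocytes in general, Plin4 (1.07), Plin1 (0.79) and Fabp4 (0.65) were higher, Cfd (-2.66) and Lpl (-0.46) lower, and Adipoq, at 0.32 ± 0.14, did not pass (edgeR adjusted p = 0.112). Without db/db replicate 2 the 5 calls became 3, and Fabp4 lost its call in 5 and Lpl in 3 of the 8 fits without 1 library. Of 5 white adipocyte markers, 4 were higher, namely Lep (5.47), Sncg (5.45), Nnat (4.66) and Npr3 (3.55). The summed level of all 5, which includes Retn (log2 fold change -0.13, not called), was 106 to 321 CPM in WT and 1880 to 2895 CPM in db/db.

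Markers of other cells in BAT moved too. All 6 fibroblast markers were higher, though 4 of the 6 under DESeq2, with library totals alone, without WT replicate 4 or without db/db replicate 1, and Pdgfra lost its call in 5 of the 8 fits without 1 library. Among them were Dpt (log2 fold change 2.45), Col3a1 (2.06), Col1a1 (1.47) and Pdgfra (1.24), and the list had summed levels of 494 to 622 CPM in WT and 1007 to 2086 CPM in db/db. Of 6 endothelial markers, 5 were tested and Tek (-1.20), Emcn (-1.06) and Kdr (-0.74) were lower (Tek not in 2 of the 8 fits without 1 library), with 239 to 304 CPM in WT and 169 to 205 CPM in db/db. Of 6 markers of smooth muscle and pericytes, 4 were tested and Acta2 (2.21) and Rgs5 (0.51) were higher, with 186 to 233 CPM in WT and 315 to 424 CPM in db/db. With the muscle score in the model, the 6 calls of brown adipocyte markers (4 lower and 2 higher) and the 4 of white adipocyte markers were kept, gene for gene, and 7 of the 8 macrophage markers were still called, beside 1 of 5 general adipocyte genes, 2 of 6 fibroblast, 1 of 3 endothelial and 1 of 2 smooth muscle markers. Of the 7 regulators of Ucp1 only Irf4, of the 8 oxidase subunits only Cox6a2, and of the thyroid and proton leak lists no gene was still called. Cox6a2 went from a log2 fold change of 3.52 to 1.27 and Slc25a4 from 0.60 to 0.12. Several genes that lost the call differed less in size, such as Atp5if1 (1.08 and 1.07 with the score, adjusted p = 0.0508), Adrb3 (-1.22 and -1.16), Thrb (-0.76 and -0.69), Ppargc1a (-0.79 and -1.03) and Esrra (-0.80 and -0.99). No list of cell type markers had a marker at 0 counts in all WT libraries. The part of cell composition in the values of the 9 genes was not tested. Of the 48 genes named from these lists, 23 overlap another annotated gene, and their counts are uncertain where reads fall in shared bases.

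The genes most like each of the 8 were taken as those with the smallest mean absolute difference in centred log2 CPM over the 8 libraries, among genes with a mean of at least 20 CPM. Ucp1 was followed most closely by Stau1 (0.10), Gpd1 (0.10) and Taldo1 (0.13), where GPD1 is the glycerol-3-phosphate dehydrogenase of the cytosol. The nearest to Cox7a1 was another subunit of the same enzyme, Cox5a (0.05), before Hagh (0.06) and the complex I subunit gene Ndufc2 (0.06). Cox8b lay nearest to Rprd2 (0.07), Oxld1 (0.07) and Acadvl (0.09), the last a dehydrogenase gene of fatty acid oxidation. Letmd1 lay nearest to 2310061I04Rik (0.06), the electron transfer flavoprotein gene Etfb (0.10) and the glycolytic gene Gpi1 (0.11).

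Kcnk3 was nearest to Prex2 (0.11), Rab3ip (0.11) and Itpk1 (0.12). Ucp2 was nearest to the myosin light chain gene Myl12a (0.15), the actin regulator Coro1c (0.19) and the galectin gene Lgals1 (0.21). Otop1 was nearest to Zfp87 (0.15) and Cops8 (0.19). Ucp3 had more distant neighbours than the other 7 genes, namely Zfp771 (0.25), Zfp768 (0.27) and the pyruvate carrier gene Mpc1 (0.27). These likenesses are values over 8 libraries of 2 genotypes and carry no test.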

How the data were processed

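Per the study's methods, the authors made single-end mRNA libraries from BAT through a commercial service, trimmed reads with bbduk, ran STAR against mm10 and obtained counts for Ensembl genes from HTSeq-count. The submitters' processing notes name Trimmomatic, HISAT2 and DESeq2, with no role given. The authors deposited raw counts per gene, and these were the values used. Use of strand and of molecular identifiers is not stated, so intervals and floors, taken as 3 counts, cover counting error only. The authors' normalised values and sample sheet were not used here.

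Genotype and replicate came from the sample titles. Each library came from a different animal, and replicate numbers are shared by both genotypes. Genes were matched to GENCODE M21 by identifier (31011 of 31053) for symbols and positions, and promoters came from RefSeq on GRCm38.p6. Genes were filtered by filterByExpr (minimum count 10, minimum total 15), scaled by TMM and tested with edgeR 4.0.16 (quasi-likelihood F test, R 4.3.3) in a model of genotype alone, with Benjamini-Hochberg adjustment over 9264 genes at 0.05. SEs were derived from the F statistic. Ratios were taken after adding 0.5 counts and compared by exact permutation with scipy 1.17.1. The procedure was tested on simulated data.

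The 9 genes and the lists were chosen with earlier results of these data known. Named were all 9 genes, up to 4 called genes per list and direction with the largest log2 fold change among those with a mean of at least 5 CPM, the genes of the ratios, and the 3 genes most like each tested gene. Genes named beyond this rule (Cox6c, Cox6b1, Esrra, Ppargc1a, Ebf2, Prdm16, Pparg, Slc25a5, Letm2, Kcnk6, Retn, Adipoq, Dio1 and Dio3) were chosen after their values were seen. Alternatives were DESeq2 1.42.0, limma-voom (limma 3.58.1), other scalings, other filters, removal of mitochondrially encoded genes, the replicate number as a block, a skeletal muscle covariate and leaving out each library. Protein sequences were not analysed here, and some genes that the naming rule selects are not reported here.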

Additional observations from a re-analysis of the deposited data

Results flagged for a closer look

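Dixon's criterion at 95% was applied to 30 sets, each the 4 libraries of a genotype for a gene or ratio, and 3 sets had a library that stood apart, where chance gives about 1.5. Ucp2 in db/db replicate 3 was 40.3 CPM, while the other db/db libraries lay between 56.3 and 57.3 CPM. Letmd1 in WT replicate 3 was 242 CPM, while the other WT libraries lay between 366 and 374 CPM. The log2 ratio of Cox7a1 to Cox7a2 in WT replicate 1 was -0.95, while the other WT libraries lay between -0.66 and -0.62.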

How the results depend on the processing

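Over the 8 tested genes, 72 of 72 comparisons under DESeq2, limma-voom, the other scalings and filters, the removal of mitochondrially encoded genes and the replicate block kept direction and side of the threshold, as did 59 of 64 in which 1 library was left out. None of these, and none of the 8 with the skeletal muscle covariate, reversed. With that covariate 702 genes were called in place of 2568, of which 72.1% were higher in place of 57.1%, and 2 of the 8 genes were called in place of 7 (1 lower in place of 6). The covariate separated the genotypes without overlap, so the cause of the loss was not tested. Leaving out 1 library gave 4 to 7 called genes of the 8, with 4 when WT replicate 4 was absent, and 2236 to 2483 called genes in all.

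Replicate numbers did not pair the libraries: deviations from the genotype means of libraries with the same number correlated between -0.08 and 0.05. With the replicate block 2557 genes were called in all and 7 of the 8. For the ratios, sign changes over 4 pairs cannot give a p below 0.125, nor 4 against 3 libraries one below 0.0571, so these say nothing about stability. Counts were few for Dio2 and Cox4i2, and 15 of the 17 relatives of the channels and of Letmd1 failed the filter on low counts.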
